A study of Homo sapiens with 2 samples.

Results

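The cytosolic heat shock genes and their transcription factor HSF1 were compared between Huh7 cells treated with homochlorcyclizine dihydrochloride (HD) and Huh7 cells given DMSO. The set holds 10 genes, listed by name with earlier results of these data known, of the 19927 genes in the deposited count table. They are HSF1, HSP90AA1, HSP90AB1, HSPA8, HSPA1A, HSPA1B, HSPH1, HSPA4L, DNAJB1 and HSPB1. Huh7 is an established human hepatocellular carcinoma line, and homochlorcyclizine is an antihistamine. Cells received medium with HD or with DMSO, the solvent control, once they had attached, and were harvested 48 h later. The dose is not stated in the sources used here. The groups are 1 HD library and 1 DMSO library of poly(A)-selected mRNA, so no difference below has a replicate check, no test between the groups was possible, and the spread between cultures was not measured.

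Heat shock proteins are chaperones that hold, fold or separate other proteins. HSF1 is held inactive by chaperones in unstressed cells. When misfolded proteins draw the chaperones away, it forms trimers and binds heat shock elements, which are repeats of the letters GAA and their complement TTC in alternating orientation. HSPA8 and HSP90AB1 are made at a high constant level in most cells, whereas HSPA1A, HSPA1B, DNAJB1, HSPH1 and HSPB1 are known as strongly heat-inducible. HSF1 activity is set largely by its binding and modification, and its mRNA level does not measure it.

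The heat shock element is the sequence feature that these genes are known for, so promoter windows are shown for the pair of most abundant genes that were at least 1.5-fold lower in the HD library, for the near-identical HSPA1A and HSPA1B, and for HSPB1, the member with the highest ratio. Each window runs from 250 bases before to 50 bases after a RefSeq start on GRCh38.p14, and capitals mark GAANNTTC, TTCNNGAA and the longer GAANNTTCNNGAA and TTCNNGAANNTTC.
HSP90AA1 promoter, chr14:102086995-102087294, minus strand: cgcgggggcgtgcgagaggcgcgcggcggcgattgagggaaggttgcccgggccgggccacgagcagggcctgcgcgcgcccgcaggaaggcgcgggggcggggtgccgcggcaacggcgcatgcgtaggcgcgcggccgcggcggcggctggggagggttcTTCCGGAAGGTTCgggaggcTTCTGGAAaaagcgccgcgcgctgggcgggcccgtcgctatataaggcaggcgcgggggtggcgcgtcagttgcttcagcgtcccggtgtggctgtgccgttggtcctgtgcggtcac
HSPA8 promoter, chr11:123062087-123062386, minus strand: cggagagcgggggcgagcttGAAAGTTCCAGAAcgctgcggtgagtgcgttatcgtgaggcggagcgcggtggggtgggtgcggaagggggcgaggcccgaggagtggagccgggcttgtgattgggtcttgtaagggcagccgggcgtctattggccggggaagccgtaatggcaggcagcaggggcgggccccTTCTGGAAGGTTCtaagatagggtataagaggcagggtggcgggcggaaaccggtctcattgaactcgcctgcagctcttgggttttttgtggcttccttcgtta
HSPA1A promoter, chr6:31815293-31815592, plus strand: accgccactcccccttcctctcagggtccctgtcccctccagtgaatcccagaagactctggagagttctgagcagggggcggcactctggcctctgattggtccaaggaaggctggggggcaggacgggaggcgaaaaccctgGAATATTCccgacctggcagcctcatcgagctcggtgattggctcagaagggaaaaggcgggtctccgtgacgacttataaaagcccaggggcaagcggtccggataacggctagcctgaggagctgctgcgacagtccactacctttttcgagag
HSPA1B promoter, chr6:31827488-31827787, plus strand: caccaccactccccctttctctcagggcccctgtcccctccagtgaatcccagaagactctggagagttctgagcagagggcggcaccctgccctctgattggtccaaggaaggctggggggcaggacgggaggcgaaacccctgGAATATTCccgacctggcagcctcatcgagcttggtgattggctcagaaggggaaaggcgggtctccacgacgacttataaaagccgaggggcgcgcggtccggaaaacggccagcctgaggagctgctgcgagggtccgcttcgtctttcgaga
HSPB1 promoter, chr7:76302423-76302722, plus strand: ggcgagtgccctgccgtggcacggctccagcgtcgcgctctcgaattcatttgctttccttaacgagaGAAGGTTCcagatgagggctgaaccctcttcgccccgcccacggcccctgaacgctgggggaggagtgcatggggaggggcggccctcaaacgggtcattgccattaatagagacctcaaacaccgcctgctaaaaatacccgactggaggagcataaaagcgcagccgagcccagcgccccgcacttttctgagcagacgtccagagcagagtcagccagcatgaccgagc

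The motifs GAANNTTC and TTCNNGAA read the same on both strands, the longer pair are reverse complements of each other, and each longer match contains the shorter ones. RefSeq windows were at hand for 9 of the 10 members, and where a gene had several, the window nearest to the start of its principal GENCODE transcript was used. At least 1 of the shorter motifs was present in 7 of these 9 windows, against 13.5% of 34943 windows of the same length over the whole table and 10.5% of 14760 windows of the genes tested here. A longer motif was present in 2 of the 9, HSP90AA1 and HSPA8, against 0.489% of all windows and 0.305% of those of genes tested. In the HSP90AA1 window TTCNNGAANNTTC began 88 bases before the start. In the HSPA8 window it began 55 bases before the start, and GAANNTTCNNGAA began 230 bases before it. HSPA1A and HSPA1B each had a single GAANNTTC, 106 and 105 bases before the start, with TATAAA 30 and 29 bases before it, and their windows were identical at 277 of 301 aligned positions (92.0%). HSPB1 had GAANNTTC 182 bases before its start and DNAJB1 had it 77 and 47 bases before its start. HSPA4L had TTCNNGAA 170 bases before its start. The used windows of HSP90AB1 and HSPH1 held none of these motifs, although a further RefSeq window of HSP90AB1, from the start 856 bases away from that of its principal transcript, held TTCNNGAANNTTC at 2 places. The RefSeq start used for HSPH1 lay 461 bases from the start of its principal transcript. For the windows printed above this distance was 147 bases (HSP90AA1), 199 bases (HSPA8), 79 bases (HSPA1A), 3 bases (HSPA1B) and 129 bases (HSPB1). A match of letters describes the window and does not show binding.

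The HD library held 40791119 counts and the DMSO library 38133894, and 12353 genes passed a filter of at least 1 CPM (counts scaled to library size with TMM factors) averaged over the libraries. These are the genes tested below. With no replicates, a call rests on size: HD over DMSO had to differ by 2-fold or more, with a 95% counting interval that did not hold 1. Across all these genes 5.10% were called lower and 5.81% higher. The liver cell markers fixed for the label check were abundant in both libraries, with 22278 CPM in the HD library and 24000.3 CPM in the DMSO library summed over 8 genes. Of 14 markers of leukocytes, endothelium and fibroblasts, KDR and COL1A2 had a count of 0 in each library. A count of 0 allows a level of 0.0737 CPM in the HD and 0.0785 CPM in the DMSO library. In the HD library the 3 marker lists summed to 19.8 (leukocyte), 5.92 (endothelial) and 10.7 (fibroblast) CPM, and in the DMSO library to 18.2, 12.0 and 10.7 CPM. PECAM1, the endothelial marker that made up most of its list, was past 2-fold with a ratio of 0.483 (0.409 to 0.566). Of the other endothelial markers, CDH5 had 6 counts in the HD library and 4 in the DMSO library, and VWF had 6 and 10. Any part of other cell types in the results below was not tested.

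All 10 members had a mean above 1 CPM, and none of them passed 2-fold in either direction. At a looser threshold of 1.5-fold, 4 of the 10 were lower in the HD library (HSPA4L, HSP90AA1, HSPH1 and HSPA8) and 0 were higher, where 14.1% of all genes were lower and 14.1% higher by the same rule. Above a mean level of 100 CPM the share that was 1.5-fold lower was 10.6% of 2327 genes. Of the members, 6 lay above that level, and of these HSP90AA1, HSPH1 and HSPA8 were 1.5-fold lower. The counting interval lay below 1 for 7 members, above 1 for 2 (HSF1 and HSPB1), and held 1 for HSPA1B, which compares with 40.0% of all genes below and 37.8% above. A ratio below 1, whatever its size, was found for 7 of the 10 members and for 51.1% of all genes tested. The median log2 ratio of the 10 members was -0.36, against -0.01 over all genes tested. An interval covers counting error only, and at these depths it excludes 1 for most genes.

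**Figure D1:**
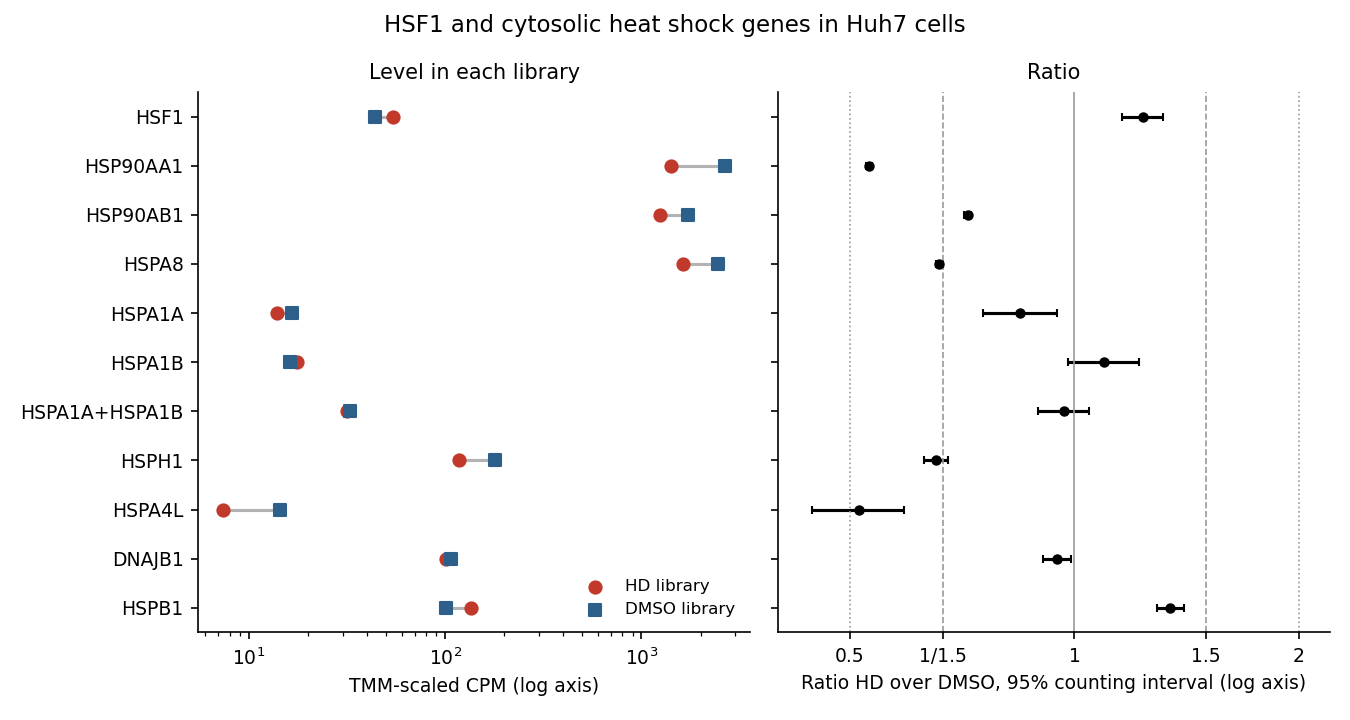
Left, TMM-scaled CPM of each member and of the HSPA1A and HSPA1B sum in the HD library (circles) and the DMSO library (squares), on a log axis. Right, the HD over DMSO ratio with its 95% counting interval on a log axis, with dashed lines at 1.5-fold and dotted lines at 2-fold. HSP90AA1 and HSPA4L lie closest to the lower 2-fold line, at 0.530 and 0.513, and HSPB1 lies farthest to the right at 1.34.

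HSF1 (chromosome 8, 144291604 to 144314720) had 2210 counts in the HD library and 1680 in the DMSO library, which is 54.3 and 44.0 CPM. The ratio was 1.23 (interval 1.16 to 1.32), short of 1.5-fold. Of all genes tested, 73.3% had a lower ratio than HSF1.

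The cytosolic HSP90 chaperones complete the folding of kinases, steroid receptors and many other client proteins. HSP90AA1, the stress-responsive form (chromosome 14, 102080742 to 102139749), had 57606 counts in the HD library and 101976 in the DMSO library, or 1415 and 2669 CPM. Its ratio was 0.530 (0.525 to 0.536), and 6.12% of all genes tested had a lower one. HSP90AB1, the constitutive form (chromosome 6, 44246194 to 44253883), had 50398 counts in the HD library and 65810 in the DMSO library, or 1238 and 1722 CPM, with a ratio of 0.719 (0.711 to 0.727). The stress-responsive form was thus the lower of the pair relative to DMSO, and their intervals did not overlap. Those intervals cover counting error only and are narrow at such high counts, and the spread between cultures was not measured. Per length, HSP90AA1 stood at 0.794 times the FPKM of HSP90AB1 in the HD library and at 1.08 times in the DMSO library, so the order of the isoforms differed between the libraries. HSP90AA1 made up 53.3% of the counts of the pair in the HD library (Wilson 95% interval 53.0% to 53.6%) and 60.8% in the DMSO library (60.5% to 61.0%). Exact 100-base windows shared with other annotated transcripts, all of them processed pseudogenes, made up 2.23% of the HSP90AA1 and 1.66% of the HSP90AB1 principal transcript.

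HSP70 proteins bind exposed hydrophobic stretches and release them in a cycle driven by ATP. HSPA8, the constitutive cytosolic HSP70 also known as HSC70 (chromosome 11, 123057489 to 123062462), had 65954 counts in the HD library and 93981 in the DMSO library. That is 1620.2 CPM with HD and 2459 CPM with DMSO, a ratio of 0.659 (0.652 to 0.665). It was the most abundant member per length in both libraries, at 761 FPKM and rank 63 of all genes in the HD library and 1159.8 FPKM and rank 32 in the DMSO library.

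HSPA1A (chromosome 6, 31815543 to 31817942) and HSPA1B (chromosome 6, 31827738 to 31830254) encode the main inducible HSP70. They are intronless neighbours with 9795 bases between them, and both were expressed at a low level. HSPA1A had 569 counts in the HD library and 632 in the DMSO library, or 14.0 and 16.5 CPM, with a ratio of 0.845 (0.753 to 0.948). HSPA1B had 718 counts in the HD library and 616 in the DMSO library, or 17.6 and 16.1 CPM, with a ratio of 1.09 (0.981 to 1.22). The copies therefore pointed in opposite directions. Of the 100-base windows of the HSPA1A transcript, 69.9% also occurred in HSPA1B, and a fragment within them cannot be assigned to either gene. A further transcript, AL671762.1, shares 30.5% of the HSPA1A windows and 33.9% of those of HSPA1B. How the authors' counting treated such reads is not stated, so the individual ratios are uncertain. If such reads were dropped, the levels of both genes and of their sum are too low.

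Summed, HSPA1A and HSPA1B had 1287 counts in the HD library and 1248 in the DMSO library. This was 31.6 CPM with HD and 32.7 CPM with DMSO, a ratio of 0.968 (0.895 to 1.05), and the interval held 1. HSPA1B took 55.8% of the summed counts in the HD library (Wilson interval 53.1% to 58.5%) and 49.4% in the DMSO library (46.6% to 52.1%). As counted, the inducible pair was a small part of the cytosolic HSP70 mRNA beside HSPA8, at 1.66% of their summed FPKM in the HD library and 1.14% in the DMSO library. These shares are too low if reads common to the copies were dropped. The pair's ratio interval lay above that of HSPA8, so by counting error alone the inducible and the constitutive HSP70 mRNAs differed in their ratio. HSPA6, a further HSP70 gene that human cells make almost only under stress, had 20 counts in the HD library and 8 in the DMSO library. This is below the level filter, with a counting interval of 0.990 to 6.16.

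HSPH1 and HSPA4L belong to the HSP110 family, whose members exchange the nucleotide of HSP70 and with it help to pull apart aggregates. HSPH1, also called HSP105 (chromosome 13, 31134973 to 31162388), had 4783 counts in the HD library and 6882 in the DMSO library. The levels were 117 CPM with HD and 180.1 CPM with DMSO, and the ratio was 0.652 (0.629 to 0.677). HSPA4L (chromosome 4, 127781796 to 127840733) had 302 counts in the HD library and 553 in the DMSO library, or 7.42 and 14.5 CPM. It had the lowest ratio of the 10 members, 0.513 (0.444 to 0.591), and 5.55% of all genes tested had a lower ratio. It was also the least abundant member per length, at 0.797 FPKM in the HD library and 1.56 FPKM in the DMSO library.

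DNAJB1, the HSP40 co-chaperone that delivers clients to HSP70 and stimulates its ATPase (chromosome 19, 14514769 to 14560391), had 4116 counts in the HD library and 4079 in the DMSO library. At 101 CPM with HD and 107 CPM with DMSO its ratio was 0.947 (0.907 to 0.989), close to 1. HSPB1, the small heat shock protein HSP27 that holds unfolding proteins without ATP (chromosome 7, 76302673 to 76304292), had 5540 counts in the HD library and 3870 in the DMSO library. At 136 CPM with HD and 101 CPM with DMSO its ratio was 1.34 (1.29 to 1.40), the highest of the 10. A processed pseudogene shares 5.06% of the 100-base windows of HSPB1.

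Whether the ratios of the members go with their levels was not tested. HSP90AA1, HSPA8, HSP90AB1 and HSPH1, the most abundant by mean CPM, had ratios of 0.530, 0.659, 0.719 and 0.652. HSPA4L, the least abundant, had the lowest ratio, and the remaining members lay between 0.845 and 1.34. HSP90AA1, HSP90AB1 and HSPA8, which held 90.5% of the members' counts in the HD library and 93.5% in the DMSO library, were all lower in the HD library. Holding most of the counts, they also made up 98.8% of the difference in summed level, which was 4721 CPM in the HD library and 7329.7 CPM in the DMSO library. The other 6 heat shock genes went both ways, between 0.513 for HSPA4L and 1.34 for HSPB1. As a share of all counts, the 10 members took 0.471% in the HD library (Wilson interval 0.469% to 0.473%) and 0.734% in the DMSO library (0.732% to 0.737%). In bulk samples a change in the number of cells expressing a gene and a change in RNA per cell cannot be told apart.

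**Figure D2:**
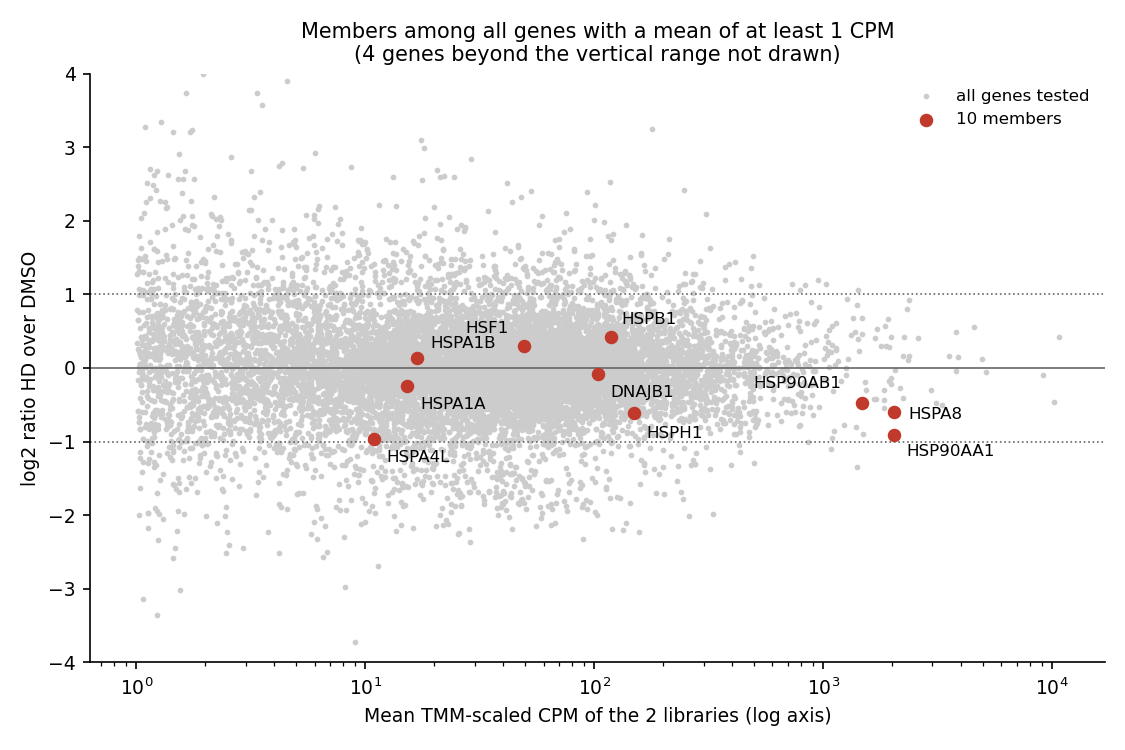
Log2 ratio of HD over DMSO (vertical axis) against the mean TMM-scaled CPM of the libraries (horizontal log axis) for every gene tested (grey) and the 10 members (red), with dotted lines at 2-fold. HSP90AA1, HSPA8 and HSP90AB1 lie at the high end of the level range below 0, and HSF1, HSPA1B and HSPB1 lie above 0.

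The same families have members in other compartments, which gives a comparison of related chaperones. The endoplasmic reticulum HSP90, HSP90B1 (GRP94), was at 684 CPM in the HD library and 1469.8 CPM in the DMSO library, a ratio of 0.466 (0.459 to 0.472) and past the 2-fold rule. The mitochondrial HSP90, TRAP1, was at 46.3 CPM in the HD library and 70.1 CPM in the DMSO library with a ratio of 0.661 (0.622 to 0.701). All 4 HSP90 genes were thus below a ratio of 1, in the order HSP90B1, HSP90AA1, TRAP1 and HSP90AB1, beside 51.1% of all genes tested. Among the HSP70 genes, HSPA5 (BiP) of the endoplasmic reticulum had 577 CPM in the HD library and 998 CPM in the DMSO library, a ratio of 0.578 (0.569 to 0.588). HSPA9 (mortalin) of mitochondria had 714 CPM in the HD library and 947 CPM in the DMSO library, a ratio of 0.753 (0.742 to 0.765), so HSPA8 lay between them.

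**Figure D3:**
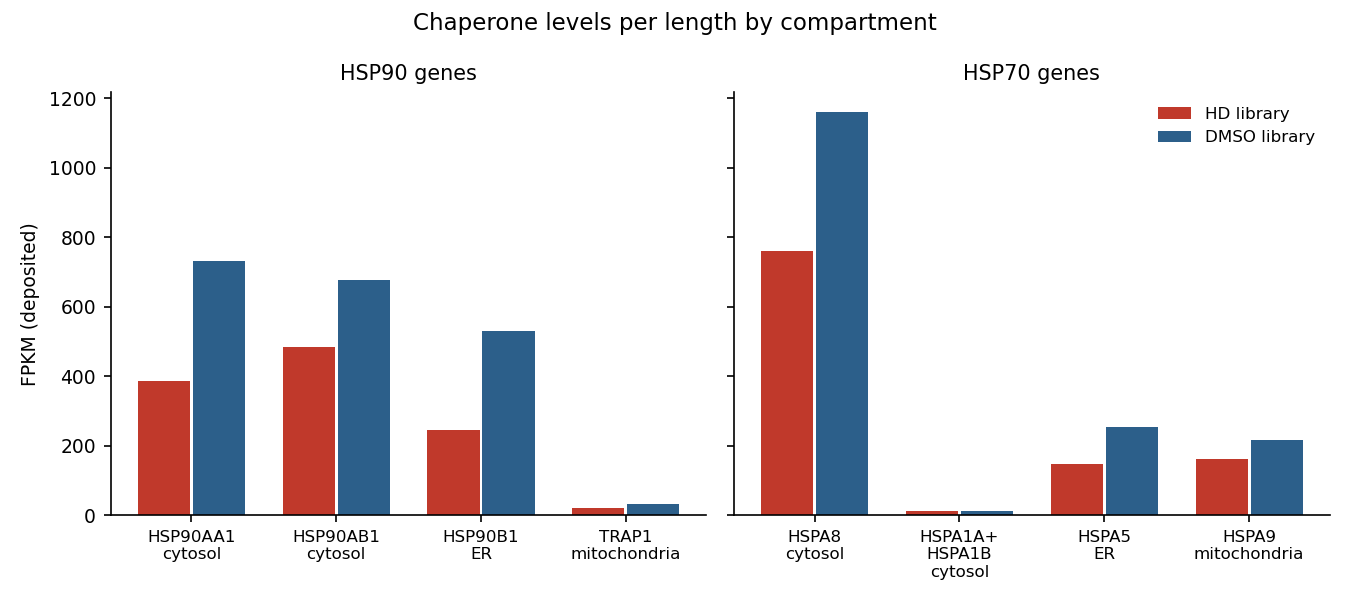
Deposited FPKM, a level per gene length, of HSP90 genes (left) and HSP70 genes (right) by compartment, with the HD library as the left bar and the DMSO library as the right bar of each pair. No error bars are drawn, since each bar is 1 library. HSPA8 is the tallest bar in either library, and the HSPA1A and HSPA1B sum is barely visible at 12.8 FPKM (HD) and 13.3 FPKM (DMSO).

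Most partners of HSP90 had ratios below 1, short of 2-fold. Of 20 co-chaperones tested, 17 were below a ratio of 1, 7 were at least 1.5-fold lower, and none passed 2-fold or was 1.5-fold higher, with a median log2 ratio of -0.44. Of all genes tested, 51.1% were below 1 and 14.1% at least 1.5-fold lower. FKBP5, an immunophilin that restrains steroid receptors, was at 20.6 CPM in the HD library and 41.2 CPM in the DMSO library, a ratio of 0.502 (0.460 to 0.545). CHORDC1, a zinc-binding co-chaperone, had a ratio of 0.512 (0.486 to 0.539), FKBP4 one of 0.547 (0.526 to 0.569) and NUDCD1 one of 0.601 (0.561 to 0.642).

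The partners of HSP70 went both ways. Of 16 J-domain proteins tested that were listed as cytosolic, 8 were below 1 and 8 above it, near the 51.1% of all genes below 1. Their median was -0.0037 (log2), and the list may hold proteins of other compartments. DNAJC9, a histone co-chaperone, was the only one past 2-fold, at 11.5 CPM in the HD library and 23.2 CPM in the DMSO library (ratio 0.495, 0.441 to 0.554). DNAJC2, which acts at the ribosome, had a ratio of 0.683 (0.637 to 0.732), while DNAJB2 and DNAJB12 had ratios of 1.61 (1.51 to 1.73) and 1.40 (1.29 to 1.53). Of 10 nucleotide exchange factors and regulators, 6 were below 1 and 3 were at least 1.5-fold lower, with a median of -0.04, beside 51.1% and 14.1% of all genes. BAG4 passed 2-fold with a ratio of 0.496 (0.461 to 0.533), BAG2 followed at 0.514 (0.484 to 0.545), HSPBP1 was at 0.618 (0.577 to 0.662) and BAG1 at 0.829 (0.772 to 0.890). BAG3, the stress-inducible member that links HSP70 to small heat shock proteins and autophagy, was at 35.0 CPM in the HD library and 29.2 CPM in the DMSO library, a ratio of 1.20 (1.11 to 1.30).

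HSPB8, the small heat shock protein that works with BAG3, had the highest ratio of the genes described here. Of all genes tested, 99.3% had a lower ratio. It had 1194 counts in the HD library and 272 in the DMSO library, or 29.3 and 7.12 CPM, and a ratio of 4.11 (3.61 to 4.72). Of the 9 other small heat shock genes listed, 2 reached the level filter, HSPB8 and IFT25, which was formerly named HSPB11 and had a ratio of 0.631 (0.584 to 0.681). The other 7, CRYAB among them with 1 count in the HD library and 8 in the DMSO library, were too low to describe.

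Among the other HSP70 and HSP110 genes, 5 of 8 reached the filter, with a median log2 ratio of -0.44. HSPA14 had a ratio of 0.550 (0.516 to 0.586), HSPA4 one of 0.738 (0.720 to 0.757), and HSPA1L, which lies beside HSPA1A, one of 0.642 (0.462 to 0.877). HSPA13, an HSP70-like protein of microsomes, was at 141 CPM in the HD library and 82.9 CPM in the DMSO library, a ratio of 1.69 (1.62 to 1.77). Of 8 genes of the HSF family and its binding partners, 5 were tested and their median was -0.06. HSF2, which forms mixed trimers with HSF1, had 18.5 CPM in the HD library and 19.3 CPM in the DMSO library, a ratio of 0.959 (0.865 to 1.06), and HSF4 had a ratio of 1.13 (0.921 to 1.38). HSBP1, which binds the HSF1 trimer, was at 153 CPM in the HD library and 187 CPM in the DMSO library, a ratio of 0.819 (0.791 to 0.847). HSF2BP was past 2-fold at a low level, with 29 counts in the HD library and 58 in the DMSO library (ratio 0.478, 0.290 to 0.745), and HSBP1L1 had a ratio of 1.05 (0.881 to 1.26).

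Of 10 mitochondrial chaperones, 9 were below 1 and 4 were at least 1.5-fold lower, with a median of -0.45, beside the same 51.1% and 14.1% of all genes. HSPD1 and HSPE1, the mitochondrial chaperonin and its lid, which share a bidirectional promoter, had near-equal ratios of 0.536 (0.530 to 0.543) and 0.545 (0.519 to 0.572). HSPE1 overlaps the read-through gene HSPE1-MOB4, whose row held 0 counts in each library. CLPB, a disaggregase, had a ratio of 0.612 (0.556 to 0.673). The 10 endoplasmic reticulum paralogs and partners divided evenly, with 5 below and 5 above 1 and a median of -0.09. HYOU1, the HSP110 relative there, had a ratio of 0.684 (0.667 to 0.702) and the co-chaperone DNAJB9 one of 1.53 (1.45 to 1.61).

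Genes of cell proliferation were lower in the HD library. All 8 listed were past 2-fold, beside 5.10% of all genes, with a median log2 ratio of -1.85 and summed levels of 746 CPM in the HD library and 2375 CPM in the DMSO library. RRM2, TOP2A, BIRC5 and CDK1 had ratios of 0.248 (0.239 to 0.256), 0.254 (0.246 to 0.262), 0.260 (0.244 to 0.276) and 0.277 (0.262 to 0.293). CCNB1, MCM2, MKI67 and PCNA had ratios of 0.279, 0.369, 0.395 and 0.419. The mitochondrially encoded genes took 3.46% of counts in the HD library and 2.99% in the DMSO library. The part of either in the levels of the heat shock genes was not tested.

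**Figure D4:**
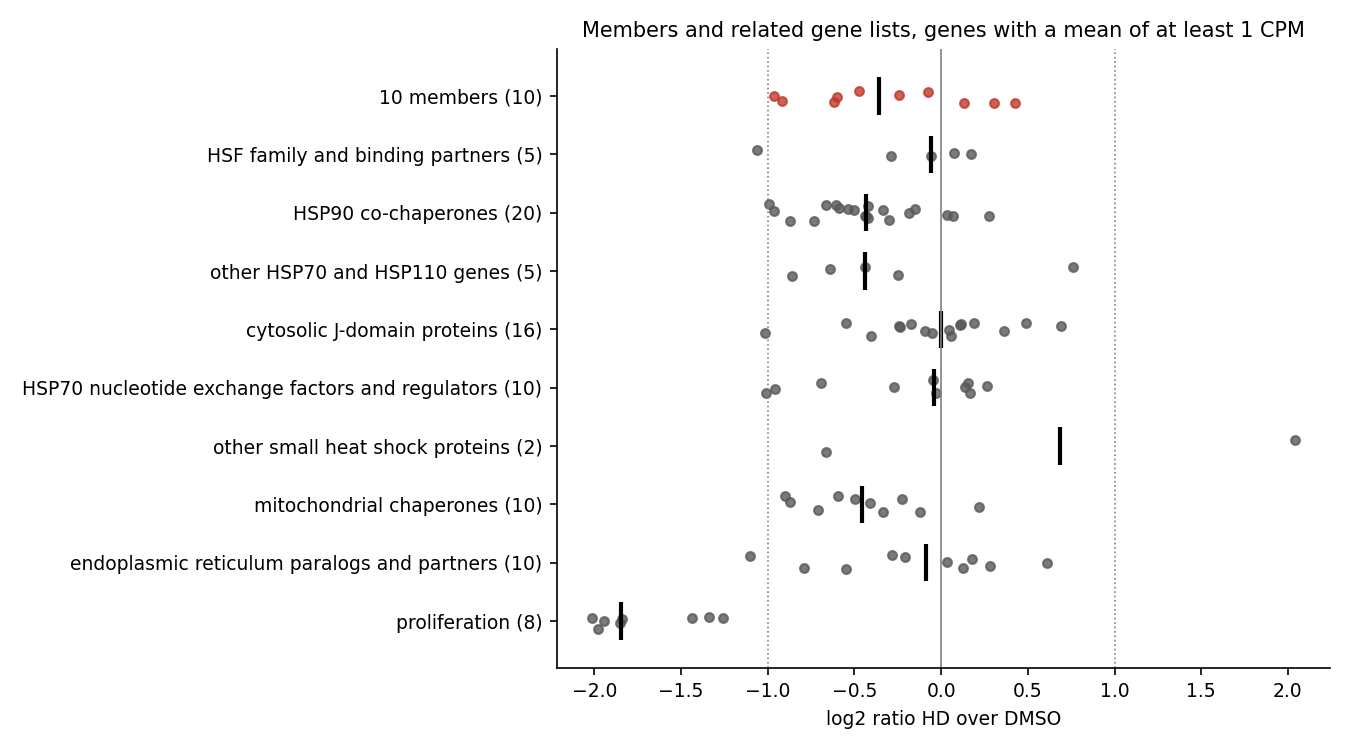
Log2 ratio of HD over DMSO for the 10 members (red) and for 9 related lists (grey), with 1 point for each gene of at least 1 CPM, the number of genes in brackets, a black bar at each median and dotted lines at 2-fold. HSP90 co-chaperones and mitochondrial chaperones lie mostly left of 0, J-domain proteins lie on both sides, proliferation genes lie left of the lower 2-fold line, and HSPB8 is the point at 2.04.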

How the data were processed

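The authors deposited raw counts per gene for both libraries in a single table, and for each library FPKM values, which divide counts by gene length and library size. Per the submitters' processing notes the build was hg38. No aligner, counter, strand setting or annotation is stated in the sources used here. Columns were tied to samples through the labels' descriptions.

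Counts were scaled with TMM factors (edgeR 4.0.16, R 4.3.3), and log2 ratios used a prior count of 1. Intervals of ratios are exact 95% Clopper-Pearson intervals given a gene's total count. They cover counting error only, and can be too narrow even for that where reads are PCR copies, which are not independent. A count of 0 allows up to 3 counts. Ratios and intervals were computed in Python 3.11.15 with scipy 1.17.1 and checked on simulated counts that held counting error only. That check does not cover the spread between cultures or PCR copies. Coordinates and promoters are from RefSeq (GRCh38.p14), transcripts from GENCODE on GRCh38, the assembly also called hg38. HSPB11 was found under a newer symbol.

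Members and lists were chosen with earlier results of these data known. From each related list the text names all genes past 2-fold, the 4 with the largest absolute log2 ratio, and, whatever their values, HSPA6, BAG3, HSPA5, HSPA9, HSP90B1, TRAP1 and HSF2. The genes of 1 further list enter the counts over lists, and are not reported here. CRYAB was chosen after its values were seen. Alternatives were DESeq2 1.42.0 size factors, library totals, other filters, prior counts and thresholds, and the deposited FPKM.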

Additional observations from a re-analysis of the deposited data

How the results depend on the processing

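No paired analysis was possible because each group is 1 library and no test was made. The log2 ratios of the 10 members moved by at most 0.01 under the other scalings, other prior counts and the deposited FPKM, none changed sign, and all stayed within their counting intervals. The ratio of HSPA1A and HSPA1B summed stayed within its interval too. Another scaling shifts every gene by the same log2 amount, -0.0059 for library totals and 0.0068 for DESeq2 size factors. The deposited FPKM rest on the same counts, and their ratios nearly repeat those with library totals. Small moves were therefore built in, and these settings are no independent check of the ratios. The count of members past 2-fold was 0 in each direction under every scaling, filter and prior count tried. With a threshold of 1.5-fold it was 4 lower and 0 higher, also with library totals or DESeq2 size factors, settings added after seeing the data.

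Over all genes, 630 were lower and 718 higher as reported. Without a filter the counts were 946 and 1197, and with a filter of 100 CPM, added after seeing the data, 62 and 96, since a filter sets how many genes are tested. At 1.5-fold they were 1736 and 1736, with library totals 1758 and 1709, and with DESeq2 size factors 1703 and 1763. Of 90 tested genes of the 10 lists, 12 were lower and 1 higher at 2-fold, beside 5.10% and 5.81% of all genes. The 8 proliferation genes are among these 12. At 1.5-fold 29 were lower and 5 higher, the same with library totals, and 28 and 5 with DESeq2 size factors. The 29 also include the 8 proliferation genes, and of all genes 14.1% were lower and 14.1% higher at 1.5-fold. With 1 library per group, depth limits the low genes such as HSPA6 and CRYAB. It also limits low members such as HSPA4L, whose interval of 0.444 to 0.591 reaches past 2-fold. For abundant members the unmeasured spread between cultures is the limit.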
